A study of Mus musculus with 6 samples.

Results

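The START genes encode lipid carriers that share a StAR-related lipid transfer domain. The 8 members described here, Stard7, Stard10, Pctp, Stard3, Stard4, Stard5, Stard8 and Stard13, were taken by gene name from the 43074 genes of each library's table, and all 8 were found. The study measured RNA of mouse soleus, a postural calf muscle of mixed fibre type, in 3 libraries of StarD7 mKO mice and 3 libraries of wild type (WT) control mice. The labels gave genotype and tissue, while age, sex, strain, the deleted part of the gene and the promoter that drives the deletion are not stated in the sources used here. The question put to the family was whether RNA of another START gene was higher where Stard7 RNA was lower.

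The START domain folds into a hydrophobic pocket that holds a lipid and lets the protein carry it through the cytosol between membranes. STARD7 carries phosphatidylcholine, which mitochondria cannot make and must import, and it reaches them through a targeting sequence that the protease PARL removes. Its closest relatives are PCTP, a phosphatidylcholine carrier, STARD10, which binds phosphatidylcholine and phosphatidylethanolamine, and CERT1, the ceramide carrier. STARD3, STARD4 and STARD5 bind sterols, and STARD8 and STARD13 are large multidomain proteins that carry a START domain at one end.

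The 3 members that carry phosphatidylcholine differed widely in RNA level, so the DNA around their start sites is shown, as RefSeq gives it in build GRCm38.p6. Each window runs from 250 bases before the start to 50 bases after it. Capitals mark CCAAT (the CCAAT box) and GGGCGG (the GC box), searched on both strands, so the reverse complements ATTGG and CCGCCC are marked too. The windows are chr2:127269979-127270278, plus strand for Stard7, chr7:101316836-101317135, plus strand for Stard10 and chr11:90002845-90003144, minus strand for Pctp.
Stard7: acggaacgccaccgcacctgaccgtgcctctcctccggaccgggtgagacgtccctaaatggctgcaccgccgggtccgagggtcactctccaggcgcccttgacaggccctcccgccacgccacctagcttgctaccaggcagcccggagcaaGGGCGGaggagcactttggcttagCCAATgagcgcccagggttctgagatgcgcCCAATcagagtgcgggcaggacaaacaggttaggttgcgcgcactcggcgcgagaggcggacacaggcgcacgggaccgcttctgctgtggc
Stard10: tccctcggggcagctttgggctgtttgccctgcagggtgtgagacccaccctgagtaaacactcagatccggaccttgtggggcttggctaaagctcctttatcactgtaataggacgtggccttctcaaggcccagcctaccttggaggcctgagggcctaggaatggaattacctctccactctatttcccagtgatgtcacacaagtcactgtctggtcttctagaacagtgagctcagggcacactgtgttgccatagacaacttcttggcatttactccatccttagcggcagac
Pctp: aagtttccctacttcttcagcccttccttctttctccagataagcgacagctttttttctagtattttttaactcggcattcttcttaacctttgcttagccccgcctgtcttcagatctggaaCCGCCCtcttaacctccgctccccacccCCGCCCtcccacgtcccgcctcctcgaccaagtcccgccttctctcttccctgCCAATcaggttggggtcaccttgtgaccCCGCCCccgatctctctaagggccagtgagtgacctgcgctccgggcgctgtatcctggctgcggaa
The Stard7 window held 2 CCAAT matches and 1 GC box match, the Stard10 window held neither, and the Pctp window held 1 CCAAT and 3 GC box matches. No window of these 3 held TATAAA. Among all 32851 windows of the same length, 37.4% held CCAAT, 35.7% held GGGCGG and 13.6% held TATAAA. A match is a description of the letters, and these counts did not follow the order of the RNA levels given next. Windows were found for 7 of the 8 members. No window was found for Stard4.

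Levels are given in the authors' unit, TPM, a count of transcripts per fixed total that divides reads by gene length. The length that gave back whole reads joins all annotated exons of a gene, so comparisons between genes are approximate. Stard7 had the highest level of the 15 START genes in WT soleus, at 92.6 ± 4.41 TPM. It was followed by Stard10 at 33.5 ± 1.51 TPM, the ceramide carrier Cert1 at 22.5 ± 0.791 TPM and Stard8 at 15.3 ± 0.318 TPM (SD, n = 3 each). Pctp, the relative most studied as a phosphatidylcholine carrier, was among the lowest at 0.839 ± 0.430 TPM in WT. Of the 14 pairs of neighbours in the WT order, 3 overlapped between libraries, which were Stard4 with Stard9, Stard5 with Pctp, and Pctp with Stard6. In mKO soleus 5 of 14 neighbouring pairs overlapped, and the additional ones were Stard10 with Stard7 and Stard7 with Cert1.

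**Figure D1:**
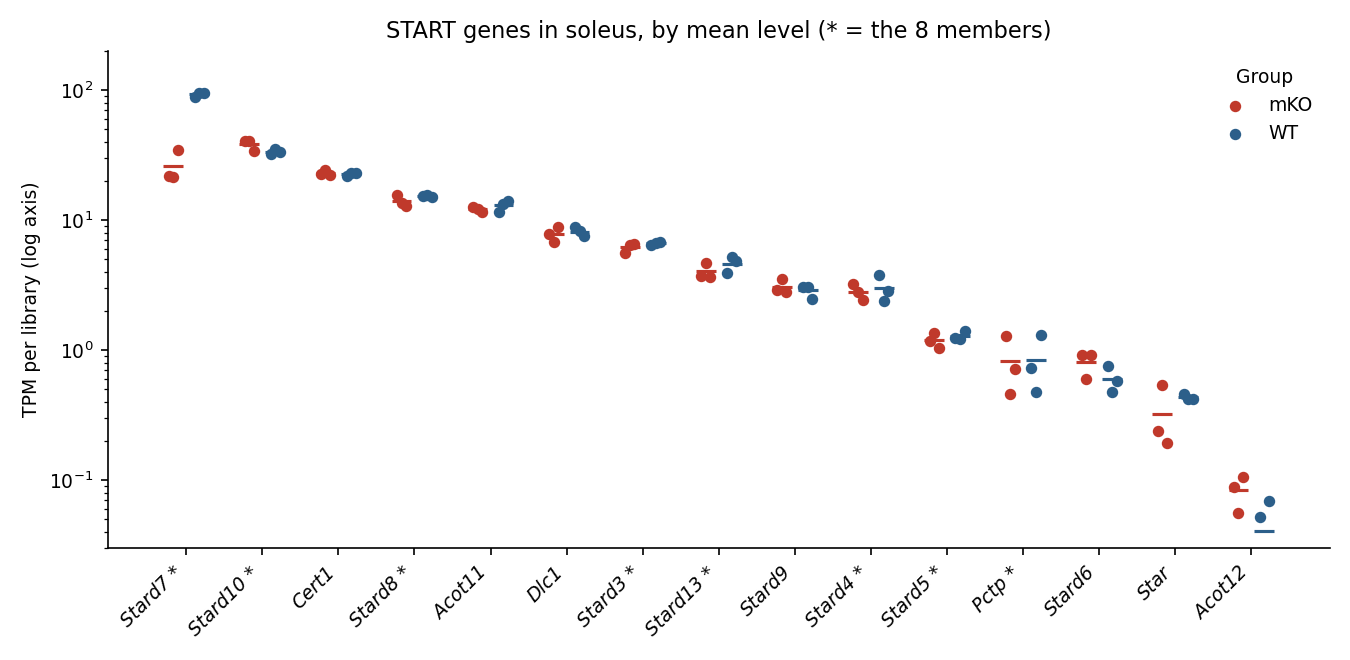
Level of each of 15 START genes in TPM on a log axis, with 1 point per library, mKO in red at the left and WT in blue at the right of each gene, and a line at each group's mean. Stard7 is the gene whose groups stand apart, while the points of the other 14 genes overlap between groups; Acot12 is listed at 0 in WT replicate 2 and has no point there.

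Stard7, the gene that the mKO label names, was lower in each mKO library, which checks the labels and is no result about the family. It stood at 21.8, 21.3 and 34.6 TPM in mKO replicates 1, 2 and 3, against 87.5, 95.4 and 94.99 TPM in WT replicates 1, 2 and 3. Every mKO library lay below every WT library, and replicate 3 was the highest of the mKO libraries. It averaged 25.9 ± 7.50 TPM in mKO and 92.6 ± 4.41 TPM in WT (SD, n = 3 each), a mean at 28.0% of the WT level. In limma's fit over all genes Stard7 had a log2 fold change of −1.83 with a 95% interval of −2.21 to −1.45 (SE 0.16, Benjamini-Hochberg adjusted p = 0.00585). The fit used log2(TPM + 1) and covered 12301 genes, each of which reached 1 TPM in 3 libraries or more. In all, 0.520% of these genes passed an adjusted p of 0.05, 0.423% lower and 0.0976% higher in mKO. In bulk muscle, fewer cells of a type and less RNA per cell cannot be told apart. Leaving out WT replicate 2 ended the call (−1.81, adjusted p = 0.0703), and so did testing every gene above 0 (−1.83, adjusted p = 0.0858).

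The remaining Stard7 RNA was unequal among the mKO libraries. Replicate 3 held 3849 Stard7 reads recovered from the TPM values, against 2486 and 2586 reads in replicates 1 and 2. The same library had the highest level of Myh1, the myosin heavy chain of type IIx fibres, at 635.5 TPM, with 112.9 and 82.7 TPM in mKO replicates 1 and 2 and 2505 to 3409 TPM in WT. Of the fast fibre markers, Myh2, Tnni2, Tnnt3, Tnnc2, Mybpc2, Pvalb, Atp2a1, Mylpf and Myl1 were also highest in replicate 3 among mKO libraries. Myh4 and Actn3 did not share this order. Myh4, the myosin heavy chain of type IIb fibres, had 10.01, 8.62 and 8.32 TPM in mKO replicates 1, 2 and 3, against 53.9, 529.6 and 634.6 TPM in WT replicates 1, 2 and 3. Actn3, an actin crosslinker of fast fibres, had 15.4, 14.97 and 12.9 TPM in mKO, against 252.3, 322.8 and 215.6 TPM in WT. Both were lowest in mKO replicate 3. The summed level of 12 fast fibre markers was 40047 TPM in mKO replicate 3, with 31713 and 30984 TPM in the other mKO libraries and 49023 to 57404 TPM in WT. Slow fibre markers (9 genes) summed to 26295, 27427 and 19237 TPM in mKO replicates 1, 2 and 3, against 23177, 21664 and 17856 TPM in WT replicates 1, 2 and 3, so mKO replicate 3 was the lowest of its group. The part of fibre type in the spread of Stard7 was not tested. Fibroblast markers (7 genes) summed to 492.9, 774.2 and 629.6 TPM in mKO, against 663.5, 707.05 and 598.6 TPM in WT. Macrophage markers (7 genes) summed to 106.7, 193.7 and 152.3 TPM in mKO, against 132.99, 145.9 and 122.8 TPM in WT. For both lists mKO replicate 3 lay between the other mKO libraries. Endothelial markers (12 genes) summed to between 359.1 and 389.6 TPM in mKO and between 383.3 and 389.3 TPM in WT. Satellite cell markers (4 genes) summed to between 18.1 and 19.5 TPM in mKO and between 17.7 and 21.04 TPM in WT. Smooth muscle and pericyte markers summed to 462.4, 426.4 and 492.9 TPM in mKO replicates 1, 2 and 3. Adipocyte markers summed to 271.7, 301.6 and 233.9 TPM, and Schwann and nerve markers to 44.7, 47.1 and 32.4 TPM, in that order. Replicate 3 was thus the highest mKO library for endothelial, smooth muscle and pericyte markers. It was the lowest for satellite cell, adipocyte, and Schwann and nerve markers. None of the marker genes of these lists was listed at 0 in all libraries.

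Stard10 was the 1 tested member other than Stard7 with a mean above WT. It had 40.6, 40.5 and 34.2 TPM in mKO replicates 1, 2 and 3, against 32.0, 35.0 and 33.4 TPM in WT replicates 1, 2 and 3. Replicates 1 and 2 of mKO lay above every WT library, and replicate 3, the mKO library with the most Stard7, lay within the WT range, so the groups overlapped. It averaged 38.4 ± 3.64 TPM in mKO and 33.5 ± 1.51 TPM in WT (SD, n = 3 each), a mean at 115% of the WT level. The difference did not pass the test over all genes (log2 fold change 0.19, 95% interval 0.01 to 0.37, unadjusted p = 0.0411, limma adjusted p = 0.438). Of all genes tested, 10.7% had an unadjusted p under 0.05. The upper end of the interval is a 1.29-fold difference on the log2(TPM + 1) scale. Over 14 other settings the value of Stard10 lay between 0.15 and 0.31 with adjusted p from 0.135 to 0.687. It was 0.15, 0.15 and 0.27 without mKO replicates 1, 2 and 3. A relation between the levels of Stard10 and Stard7 within mKO was not tested.

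Pctp was a weakly expressed member, measured from few reads. It had 1.29, 0.456 and 0.716 TPM in mKO replicates 1, 2 and 3, against 0.730, 0.474 and 1.31 TPM in WT replicates 1, 2 and 3. Each group held a library above 1 TPM and a library below 0.5 TPM, and the groups overlapped throughout. These values rest on 27 to 78 reads. Counting alone gives a coefficient of variation of 14.4% if reads are independent, and more where a pair counts as 2. The measured coefficient was 52.1% in mKO and 51.3% in WT. Pctp did not reach 1 TPM in 3 libraries and was not in the main test. In the fit with no filter its log2 fold change was −0.01 (95% interval −0.57 to 0.54, limma adjusted p = 0.998). Its mean in mKO was 0.821 ± 0.427 TPM. The summed level of Pctp and Stard10 was 39.2 ± 3.76 TPM in mKO and 34.3 ± 1.41 TPM in WT, a difference of 4.93 TPM, while Stard7 itself fell by 66.7 TPM.

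The sterol binding members were close to WT in each group of libraries. Stard3, a late endosomal membrane protein that tethers endosomes to the endoplasmic reticulum, had 5.59, 6.44 and 6.58 TPM in mKO replicates 1, 2 and 3, against 6.37, 6.61 and 6.81 TPM in WT replicates 1, 2 and 3. Its log2 fold change was −0.08 (95% interval −0.26 to 0.11, limma adjusted p = 0.799). Stard4, a cytosolic cholesterol carrier whose gene is a target of the sterol regulator SREBP2, had 3.24, 2.78 and 2.41 TPM in mKO, against 3.76, 2.39 and 2.82 TPM in WT. The libraries of both groups lay interleaved, and the log2 fold change was −0.06 (95% interval −0.39 to 0.27, limma adjusted p = 0.928). Stard5, which binds cholesterol and bile acids, had 1.18, 1.35 and 1.04 TPM in mKO, against 1.23, 1.21 and 1.40 TPM in WT. It was at −0.06 (95% interval −0.30 to 0.19, limma adjusted p = 0.904) and rested on 114 to 167 reads. Of 9 tested genes of a list regulated by sterols, 0 were called, 0 had an unadjusted p under 0.05, and the list's median was 0.02. Insig1, a sterol-sensing retention protein of that list, averaged 12.7 ± 1.11 TPM in mKO and 9.88 ± 2.65 TPM in WT (SD, n = 3 each, limma adjusted p = 0.473).

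The large multidomain members, Stard8 and Stard13, were slightly below WT in mean and did not pass the test. These proteins are known from endothelial cells among others. Stard8 had 15.5, 13.5 and 12.7 TPM in mKO replicates 1, 2 and 3, against 15.4, 15.5 and 14.9 TPM in WT replicates 1, 2 and 3. Replicate 1 of mKO lay level with the highest WT library, and the other mKO libraries lay below all WT libraries. The log2 fold change was −0.13 (95% interval −0.31 to 0.05, limma adjusted p = 0.632). Stard13 had 3.70, 4.70 and 3.66 TPM in mKO, against 3.89, 5.18 and 4.80 TPM in WT, a log2 fold change of −0.16 (95% interval −0.44 to 0.12, limma adjusted p = 0.702). Of 12 endothelial markers 0 were called, 1 had an unadjusted p under 0.05 and 8 were below 0, with a median of −0.07. Of all 12301 genes tested, 10.7% had an unadjusted p under 0.05 and 6782 were below 0, with a median of −0.01. Tie1, a receptor of endothelial cells, averaged 28.2 ± 2.33 TPM in mKO and 32.0 ± 0.609 TPM in WT (SD, n = 3 each, limma adjusted p = 0.395). The part of the endothelial RNA in the values of Stard8 and Stard13 was not tested.

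**Figure D2:**
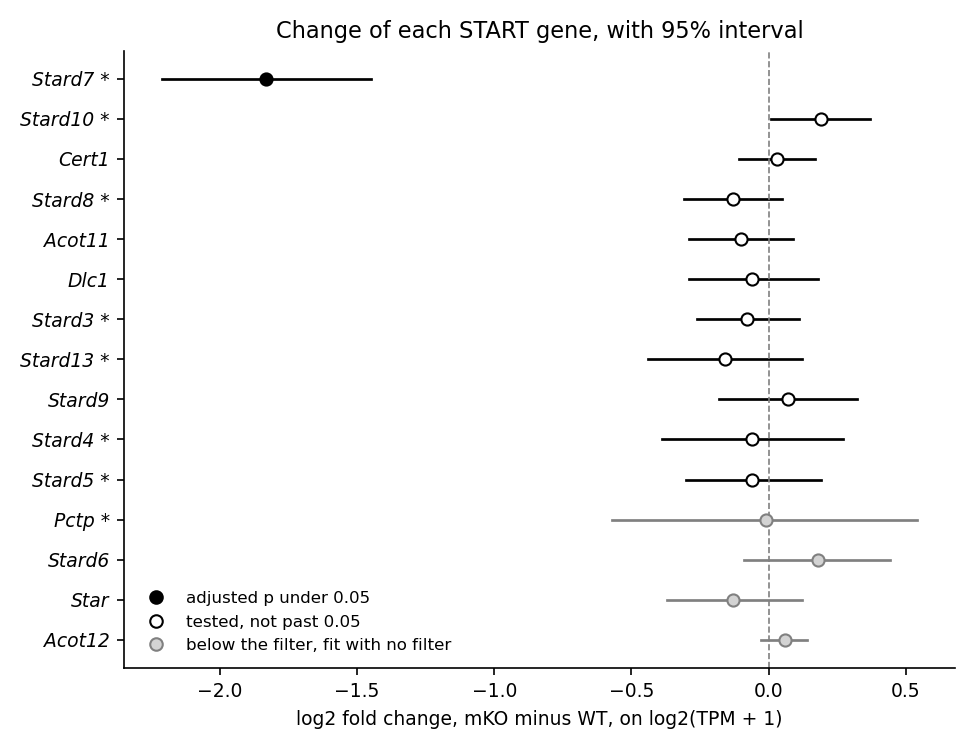
Difference of each START gene in log2(TPM + 1), mKO minus WT, with its 95% interval as a line; filled black marks an adjusted p under 0.05, white a tested gene that did not pass and grey a gene below the filter. Stard7 is at −1.83, and the interval of Stard10, from 0.01 to 0.37, is the only other one that lies wholly on one side of 0.

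Among the 6 tested members other than Stard7, limma called 0 in either direction, beside 0.520% of all genes tested. Limma-voom on recovered reads also called 0 of them, beside 98 of 11351 genes. At such shares, 0 called among few genes does not set a list apart from all genes, and this holds for the lists below. Stard10 alone had an unadjusted p under 0.05, beside 10.7% of all genes tested. None of the 6 had groups that did not overlap, a state found in 16.0% of all genes tested. Of the 6, 5 were below 0, beside 6782 of all 12301 genes tested. Of these 5, 3 (Stard3, Stard4 and Stard5) were above 0 when the mitochondrially encoded genes were left out and TPM rescaled. The median log2 fold change of the 6 was −0.07, beside −0.01 over all genes tested. The intervals leave room for differences of the size of their bounds. On the log2(TPM + 1) scale the upper bounds were 1.29-fold for Stard10, 1.21-fold for Stard4, 1.14-fold for Stard5, 1.08-fold for Stard3 and Stard13, and 1.04-fold for Stard8. These bounds hold for the main TPM scaling. With mitochondrially encoded genes left out the values of all 6 moved up, to 0.309 for Stard10, −0.0209 for Stard8 and −0.0743 for Stard13.

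The START genes outside the 8 members held no called gene either. Of 7, 4 were tested, and limma called 0 of them, with 0 at an unadjusted p under 0.05 and 0 by limma-voom. Cert1 averaged 22.995 ± 1.01 TPM in mKO and 22.5 ± 0.791 TPM in WT, with a log2 fold change of 0.03 (95% interval −0.11 to 0.17, limma adjusted p = 0.905). Acot11, an acyl-CoA thioesterase with a START domain, averaged 12.1 ± 0.511 TPM in mKO and 13.01 ± 1.32 TPM in WT (−0.10, 95% interval −0.29 to 0.09, limma adjusted p = 0.742). Dlc1, the close relative of Stard8 and Stard13, stood at −0.06 (95% interval −0.29 to 0.18), and Stard9, a kinesin with a START domain, at 0.07 (95% interval −0.18 to 0.32). Without mitochondrially encoded genes Acot11 and Dlc1 were at 0.0111 and 0.0520. Star, the steroidogenic carrier for which the domain is named, Stard6 and Acot12 were below the filter. Their means were 0.323 ± 0.186, 0.814 ± 0.183 and 0.0837 ± 0.0256 TPM in mKO, against 0.435 ± 0.0242, 0.601 ± 0.138 and 0.0407 ± 0.0363 TPM in WT.

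The summed level of the family was lower in each mKO library than in each WT library. The 15 START genes summed to 139.9, 138.7 and 142.6 TPM in mKO replicates 1, 2 and 3, against 197.2, 210.1 and 208.6 TPM in WT replicates 1, 2 and 3. The 14 genes other than Stard7 summed to 118.1, 117.4 and 108.1 TPM in mKO, against 109.7, 114.7 and 113.6 TPM in WT. The groups overlapped in this sum, whose means were 114.5 ± 5.61 TPM in mKO and 112.6 ± 2.63 TPM in WT, a difference of 1.89 TPM (SD, n = 3 each). The sum of all 15 genes differed by −64.8 TPM and Stard7 alone by −66.7 TPM, so the lower family sum restates the fall of Stard7. Stard7 made up 15.6%, 15.4% and 24.2% of the family's TPM in mKO, against 44.4%, 45.4% and 45.5% in WT. Stard10 held 27.4% ± 2.94 of it in mKO and 16.3% ± 0.348 in WT, and a share of a smaller sum is larger at the same level. The ratio of Stard7 to Stard10 was 0.537, 0.527 and 1.01 in mKO, against 2.73, 2.72 and 2.85 in WT. These sums and shares are descriptions over chosen genes and carry no test. TPM has a fixed sum, and mitochondrially encoded genes took 48.0% ± 1.05 of it in mKO and 43.6% ± 1.49 in WT, which lowers the share left to nuclear genes in mKO. With those genes left out, the sum of the 14 genes was 220.3 TPM in mKO and 199.6 TPM in WT, and the median over all genes lay at 0.09 in place of −0.01 on the log2 scale.

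**Figure D3:**
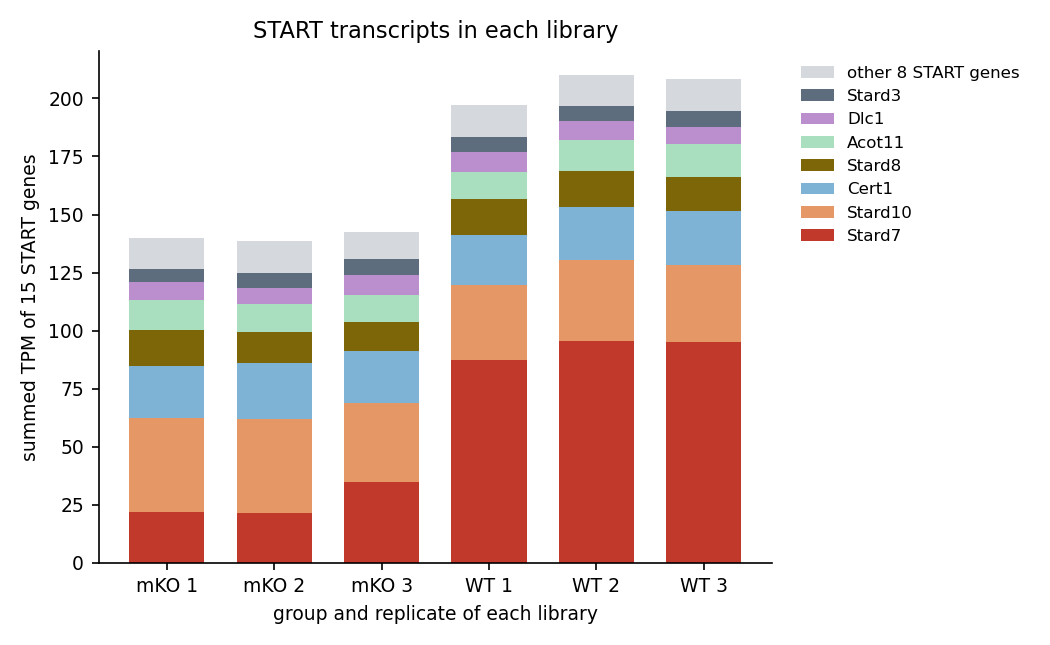
Summed TPM of 15 START genes in each library, mKO libraries at the left and WT libraries at the right, with bars starting at 0 and a colour for each of the 7 genes at the highest mean level. The red segment of Stard7 is shorter in the 3 mKO libraries, whose bars end between 138.7 and 142.6 TPM, while WT bars end between 197.2 and 210.1 TPM.

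The lists of lipid transfer genes without a START domain held no called gene by limma. Of 14 tested genes of mitochondrial lipid transfer, 4 had an unadjusted p under 0.05, beside 10.7% of all genes tested, and the median was 0.02. Atg2a, a bridge-like lipid transfer protein of autophagosome growth, had 15.1, 14.9 and 15.1 TPM in mKO replicates 1, 2 and 3, against 11.8, 11.3 and 12.5 TPM in WT replicates 1, 2 and 3. Its groups did not overlap, and its log2 fold change of 0.32 (95% interval 0.17 to 0.46) had a limma adjusted p of 0.0917. It passed in 1 of 14 other settings, limma-voom on recovered reads (adjusted p = 0.0364), with a range of 0.0364 to 0.412. Triap1, the partner of the PRELI carriers in the intermembrane space, averaged 25.8 ± 1.23 TPM in mKO and 22.1 ± 1.96 TPM in WT (0.22, limma adjusted p = 0.355). Prelid2, of the PRELI family, averaged 2.57 ± 1.18 TPM in mKO and 1.23 ± 0.210 TPM in WT (0.63, limma adjusted p = 0.354). It rested on 25 to 98 reads. Ptpmt1, the remaining gene of the 4, went the other way. It averaged 11.3 ± 0.668 TPM in mKO and 12.7 ± 0.326 TPM in WT (−0.16, limma adjusted p = 0.458), and its groups did not overlap.

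Phosphatidylinositol transfer proteins, which use a related fold, were all tested, with 0 of 6 called, 2 at an unadjusted p under 0.05 and a median of −0.10. Over all genes tested, 10.7% had an unadjusted p under 0.05. Pitpnc1 averaged 51.3 ± 0.738 TPM in mKO and 58.7 ± 2.75 TPM in WT (−0.19, limma adjusted p = 0.234). Of the StART-like sterol carriers, which lie at contact sites of the endoplasmic reticulum, 2 of 3 were tested, with 0 called and 0 at an unadjusted p under 0.05. Gramd1a averaged 27.3 ± 0.917 TPM in mKO and 26.3 ± 1.22 TPM in WT (0.05, limma adjusted p = 0.827), and Gramd1b stood at 0.10 (limma adjusted p = 0.807).

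Genes around the members' known partners were also uncalled. All 12 genes of the import and processing of STARD7 were tested, 0 passed, 1 had an unadjusted p under 0.05, and all 12 were below 0 with a median of −0.06. Of all 12301 genes tested, 10.7% had an unadjusted p under 0.05 and 6782 were below 0. Parl averaged 18.5 ± 0.399 TPM in mKO and 19.1 ± 0.179 TPM in WT (−0.05, limma adjusted p = 0.829), and it was at 0.0679 with mitochondrially encoded genes left out. Timm17a, a subunit of the inner membrane import channel, averaged 39.2 ± 0.715 TPM in mKO and 43.0 ± 1.19 TPM in WT (−0.13, limma adjusted p = 0.396). With mitochondrially encoded genes left out Timm17a was at −0.0177. Of 7 contact site partners of STARD3, 0 passed, 1 had an unadjusted p under 0.05, and the median was 0.04. Npc1, the lysosomal cholesterol exporter, averaged 5.67 ± 0.465 TPM in mKO and 7.03 ± 0.679 TPM in WT (−0.26, limma adjusted p = 0.337). Of 8 lipid partners of PCTP and STARD10, 7 were tested and 0 passed, with 0 at an unadjusted p under 0.05 and a median of −0.09. Acot13, the thioesterase that binds PCTP, averaged 225.7 ± 5.22 TPM in mKO and 212.4 ± 11.8 TPM in WT (0.09, limma adjusted p = 0.635). Limma-voom on recovered reads called 1 gene on the lists of carriers, partners and sterol regulation, Atg2a.

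The genes most like Stard7 across the 6 libraries were Cib2, Tlcd3b and Tmem233. Likeness was the Euclidean distance between log2(TPM + 1) profiles centred on each gene's mean, over 11352 named genes outside the family. Cib2, a calcium and integrin binding protein, was the nearest at a distance of 0.254 (Pearson r = 0.99 over 6 libraries that form 2 groups). It had 3.37, 3.85 and 7.15 TPM in mKO replicates 1, 2 and 3, against 17.8, 17.6 and 17.2 TPM in WT replicates 1, 2 and 3. Like Stard7, it was highest in replicate 3 among the mKO libraries, which the choice by distance over these same libraries favours. Tlcd3b, a TLC domain protein, was at 0.542, and the membrane protein gene Tmem233 at 0.551. For Stard10, whose profile is flatter, the nearest were Iqsec2, Rhobtb1 and Rcbtb2, at 0.0745, 0.0779 and 0.0788. For Stard3 they were Hook3, Slc11a2 and Mterf4, and for Stard8 they were Neurl2, Timm8b and Mtarc2.

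Called genes on the marker lists were those of muscle fibres. All 12 fast fibre markers were below 0, with a median of −0.62, and 11 had an unadjusted p under 0.05, beside 10.7% of all genes tested. Limma called 4 of the 12, beside 0.423% of all genes called lower, and limma-voom on recovered reads called 6. The 4 fell by log2 fold changes of −6.73 for Mybpc2, −4.08 for Actn3, −5.87 for Pvalb and −0.49 for Tnnc2. All 7 skeletal muscle markers were below 0, with a median of −0.19, and 4 had an unadjusted p under 0.05. Of all 12301 genes tested, 6782 were below 0, with a median of −0.01, and 10.7% had an unadjusted p under 0.05. Limma called 1 of the 7, the calcium release channel gene Ryr1 (−0.38), and limma-voom on recovered reads called 3. The calls of Tnnc2 and Ryr1 held in 2 and 4 of 14 other settings. With mitochondrially encoded genes left out, which moved nuclear genes up, Tnnc2 was at −0.372 and Ryr1 at −0.259, and neither was called. Of 9 slow fibre markers 0 passed, with 1 at an unadjusted p under 0.05. Of these 9, 8 were above 0, with a median of 0.24, beside 5519 of all 12301 genes tested. No gene passed by limma or limma-voom on the lists of endothelial, smooth muscle and pericyte, adipocyte, fibroblast, macrophage, Schwann and nerve, or satellite cell markers, each of which held 0 or 1 gene at an unadjusted p under 0.05. Adipocyte markers summed to 269.1 ± 33.9 TPM in mKO and 302.1 ± 91.6 TPM in WT (SD, n = 3 each).

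**Figure D4:**
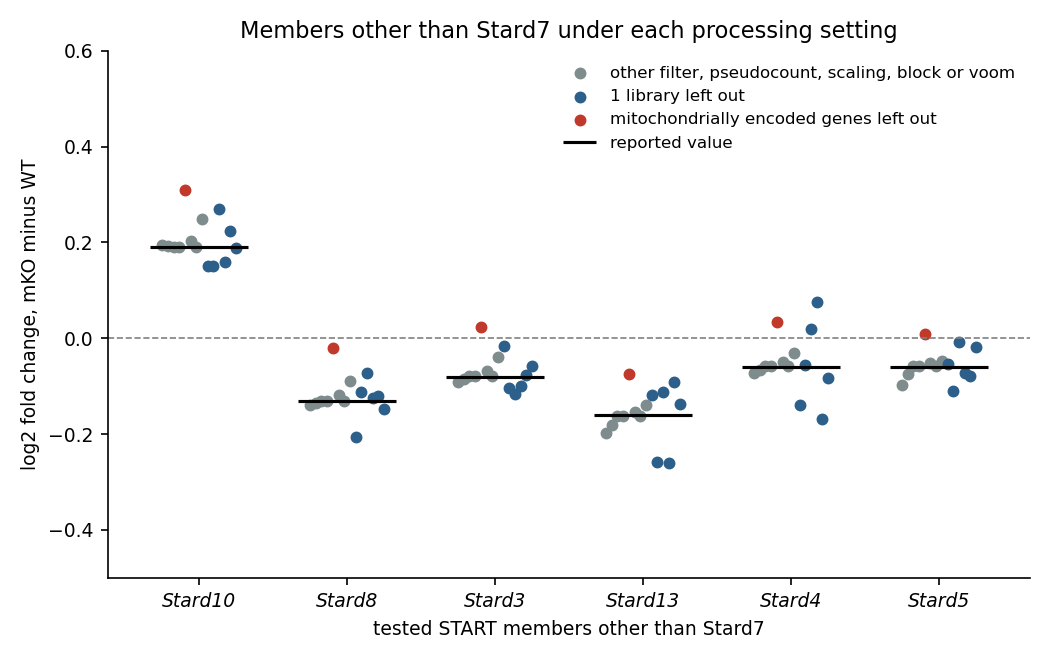
Log2 fold change, mKO minus WT, of the 6 tested members other than Stard7 under 14 other settings, with the reported value as a black line. Stard10 lies above 0 at every setting, between 0.15 and 0.31, and Stard8 and Stard13 lie below 0 at every setting, while Stard3, Stard4 and Stard5 have points on both sides of 0.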

How the data were processed

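RNA of soleus was measured in 3 mKO and 3 WT libraries, grouped by the labels. TPM values were deposited by the authors as 1 table for each library, scaled to the same sum. Per the labels' protocols, libraries were poly(A)-selected and directional, and per the submitters' processing notes the build was GRCm39. The aligner, the counting tool and its strand setting are not stated in the sources used here. Genotype was tested by limma-trend (R 4.3.3 with limma 3.58.1) using log2(TPM + 1) and no covariate, keeping genes that reached 1 TPM in 3 libraries or more. P-values were adjusted by Benjamini-Hochberg over all 12301 genes with a threshold of 0.05. Labels do not tie libraries to animals, so p-values measure the spread between these samples. Members and lists were chosen with earlier results of these data known. All START genes and up to 3 members of each list with the smallest p could be named, besides every called one. Not all of these are printed. Parl, Ptpmt1, Myh1, Myh4 and the other uncalled fast fibre markers, outside this rule, were chosen after their values were seen.

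TPM times exon length (GENCODE M21), scaled per library, came within 0.05 of a whole number of reads for 93.06% of 23036 genes. They came to 43222637 to 51645652 per library, and 58.55% of nonzero values were even, so some read pairs may count as 2 reads. Libraries of a group differed by more than counting noise (chi-square of 19.5 to 37.2 per degree of freedom), so none was taken as a repeat deposit of another. This does not show that they came from separate animals. Alternatives were other pseudocounts, filters and scalings, a replicate block, limma-voom and each library left out.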

Additional observations from a re-analysis of the deposited data

How the results depend on the processing

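Of 84 values of the 6 tested members other than Stard7 under the 14 other settings, 0 were called, with a lowest adjusted p of 0.135. Stard7 was lower in mKO in all settings, between −2.05 and −1.72 with 1 library left out, and its call was lost with no filter (−1.83, adjusted p = 0.0858) and without WT replicate 2 (−1.81, adjusted p = 0.0703), and the cause was not tested. The number of genes called was 64, and it was 6 with no filter, 98 by limma-voom on recovered reads, 41 with mitochondrially encoded genes left out and 4 to 94 with 1 library left out (13, 26 and 94 without mKO replicates 1, 2 and 3, and 13, 4 and 12 without WT replicates 1, 2 and 3). Replicate numbers shared by the groups were not shown to pair the samples, and the labels state no pairing. The deviations of same-numbered libraries correlated at 0.095, 0.047 and 0.131. Those of differently numbered libraries correlated lower, at −0.093 to 0.001, and whether the numbers pair the samples was not tested. With the number as a replicate block 21 genes were called, Stard7 at −1.83 (adjusted p = 0.0186). Small differences crossed 0. With mitochondrially encoded genes left out, which moved the median of all genes from −0.01 to 0.09, Pctp was at 0.0475, Stard3 at 0.0244, Stard4 at 0.0340, Stard5 at 0.00883, Dlc1 at 0.0520, Acot11 at 0.0111 and Parl at 0.0679, and the sum of the START genes other than Stard7 moved to 220.3 TPM in mKO and 199.6 TPM in WT. Parl was at 0.00406 by limma-voom. With 1 library left out Stard4 lay between −0.17 and 0.0762, Stard9 between −0.00238 and 0.118 (−0.00237 without mKO replicate 2, −0.00238 without WT replicate 3), Cert1 between −0.00249 and 0.0522 and Dlc1 between −0.14 and 0.0318. Pctp rests on 27 to 78 reads. Its spread between libraries (52.1% in mKO, 51.3% in WT) is wider than the 14.4% that counting gives for independent reads.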
